A study of Mus musculus with 15 samples.

Results

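The genes described here are the cytosolic ribosomal protein genes of the mouse: protein-coding genes whose symbol begins with Rpl or Rps and a number, without Rpl10l, pseudogenes and the Rps6k kinases. The rule found 81 genes, 33 with a small subunit symbol (Rps) and 48 with a large subunit symbol (Rpl), among the 55471 gene IDs of each count table, of which 21974 are protein-coding. The rule reads symbols alone and used no measured value. It takes in Rps19bp1, which encodes a binding partner of Rps19 and not a subunit, and 7 genes that are copies of another gene in the list: Rpl3l, Rpl7l1, Rpl22l1, Rpl36al, Rpl39l, Rps27l and Rps27rt. It leaves out 6 ribosomal protein genes with other symbols (among them Rplp0, Rplp1, Rplp2, Rpsa and Fau), which are given beside the 81.

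Poly(A) RNA was counted per gene in 15 libraries of E14 mouse embryonic stem cells (mESCs) and of embryoid bodies grown from them, in 5 groups of 3. Wild-type mESCs in 2i/LIF were nontreated or had 500 nM dTAG-13, a degrader of dTAG-tagged proteins, for 72 h. NSD1-dTAG mESCs, in which the histone methyltransferase NSD1 carries the degron tag, were nontreated. NSD1-dTAG embryoid bodies (EBs) grew in suspension for 6 days without or with 500 nM dTAG-13 for those 6 days, so all EBs carry the tag and there is no wild-type EB group among the libraries analysed. The labels name each library a biological replicate and give neither the number of NSD1-dTAG clones nor the cultures behind the replicates, so the p-values here rest on the spread between these libraries, which may be technical. RNA counts do not measure the tagged NSD1 protein.

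Ribosomal proteins are made in equal amounts to build the small and large subunits, and their mRNAs are short, abundant and stable. Most of these mRNAs begin with a C followed by a run of pyrimidines, the terminal oligopyrimidine (TOP) motif, through which mTOR signalling and LARP1 control their translation. A few of the proteins have a second copy with restricted expression, such as Rpl3l in muscle and Rpl39l in germ cells and stem cells, and the copy can take the place of its parent protein in the ribosome.

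The start of the transcript is shown for the genes on which the results turn. Each line gives 30 bases, 10 before the annotated start and 20 from it, 5′ to 3′ on the gene's own strand, from RefSeq promoters of GRCm38.p6. Capitals mark a run that opens with C and goes on with 4 or more C or T, beginning within 5 bases of the annotated start.
Rpl15 (chr14:18270967-18270996, minus strand): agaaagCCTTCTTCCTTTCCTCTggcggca
Rps24 (chr14:24490668-24490697, plus strand): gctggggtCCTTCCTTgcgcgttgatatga
Rps27 (chr3:90213629-90213658, minus strand): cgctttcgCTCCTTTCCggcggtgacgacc
Rps27rt (chr9:114982720-114982749, minus strand): ttatcccttgCTTTCCggcggtgacgacct
Rpl22l1 (chr3:28805498-28805527, plus strand): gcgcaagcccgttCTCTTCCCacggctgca
Rpl39 (chrX:37085203-37085232, minus strand): gctccgCCTCTagcgacttcttctaatcgc
Rpl39l (chr16:10170218-10170247, plus strand): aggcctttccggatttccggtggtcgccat
Rpl7l1 (chr17:46782637-46782666, minus strand): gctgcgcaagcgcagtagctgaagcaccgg
Rps27 and its single-exon copy Rps27rt share 19 bases in a row in these windows. The windows of Rpl39 and Rpl39l share at most 4. Of the 81 genes, 62 have an entry in the promoter table, with 74 starts. A run lay at 31 of the 74 starts (41.9%) and at 6027 of the 32851 starts of all genes in the table (18.3%). In the whole window of 250 bases before to 50 after the start, the ETS factor core CCGGAAG, on either strand, was in 33.8% of the ribosomal protein starts and 8.86% of all starts, and the YY1 core AAGATGGC in 10.8% and 2.75%. These are matches of letters in this window.

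Levels are given as CPM, the count scaled to the library's total of gene counts, and between genes as length-scaled CPM, in which each count is first divided by the gene's transcript length. The median ribosomal protein gene stood at 522 CPM over the 15 libraries, and 73 of the 81 had a mean above 100 CPM. Rpl4, a large subunit protein, had the highest CPM in every group, from 3012 in dTAG-13-treated wild-type mESCs to 3514 in nontreated EBs, and the 5 highest genes, Rpl4, Rpl8, Rps3, Rps12 and Rpl3, took 19.3% of the counts on the 81. Per length the order differed: Rps12, of the small subunit, came first at 5675 length-scaled CPM, followed by Rpl8 at 5565, Rps14 at 5211 and Rpl4 at 4660. Rps15a and Rps20 stood at 264 and 564 on that scale, with annotated transcripts of 5179 and 3706 bases against a median of 805 for the 81. Which transcript the cells make was not measured, and the scale divides by the annotated length.

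The 8 genes under 100 CPM were Rps19bp1, Rpl29 and 6 with mean levels under 10 CPM. Rpl39l stood at 9.80 CPM, Rps10 at 8.10, Rpl36al at 5.53, Rps27rt at 1.52, Rpl24 at 1.06 and Rpl3l at 0.657. Rps10, Rpl24 and Rpl36al overlap another gene on the same strand, RPS10-NUDT3, Gm28037 and Gm49383, and these partners held at most 0, 0 and 2 counts in any library. How the authors' counting treated reads in such overlaps is not given in the sources used here, and its part in the low counts of these 3 genes was not tested. In all, 37 of the 81 genes overlap exons of another gene, 26 on the same strand and 19 on the opposite strand, and 57 have at least 1 annotated pseudogene by symbol, up to 24 for Rps12 and Rpl31. Their counts are uncertain where the counting split, shared or dropped such reads.

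The 81 genes took between 4.69% and 7.92% of the gene counts of a library. In wild-type mESCs the share was 5.69%, 4.72% and 4.69% in libraries 1 to 3. With dTAG-13 it was 4.75%, 4.71% and 5.81%. In NSD1-dTAG mESCs it was 7.92%, 4.87% and 4.69%. Each of these groups has a single library well above its other 2, which lie close together. The EBs looked alike: nontreated EBs had 5.31%, 5.01% and 6.27%, and dTAG-13-treated EBs 5.03%, 4.84% and 6.50%. Group means were 5.04% ± 0.568 (SD, n = 3) and 5.09% ± 0.625 in wild-type mESCs without and with dTAG-13, 5.82% ± 1.81 in NSD1-dTAG mESCs, and 5.53% ± 0.655 and 5.46% ± 0.909 in EBs without and with dTAG-13. No group differed from its control beyond this spread. The difference was 0.0550 percentage points for dTAG-13 in wild-type mESCs (exact 2-sided permutation p = 0.6), 0.789 for the knock-in (p = 0.7), -0.295 for EBs against mESCs (p = 1) and -0.0691 for dTAG-13 in EBs (p = 0.9), where 3 against 3 libraries cannot give a p below 0.1. The sign of each difference turned when at least 1 library was left out.

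**Figure D1:**
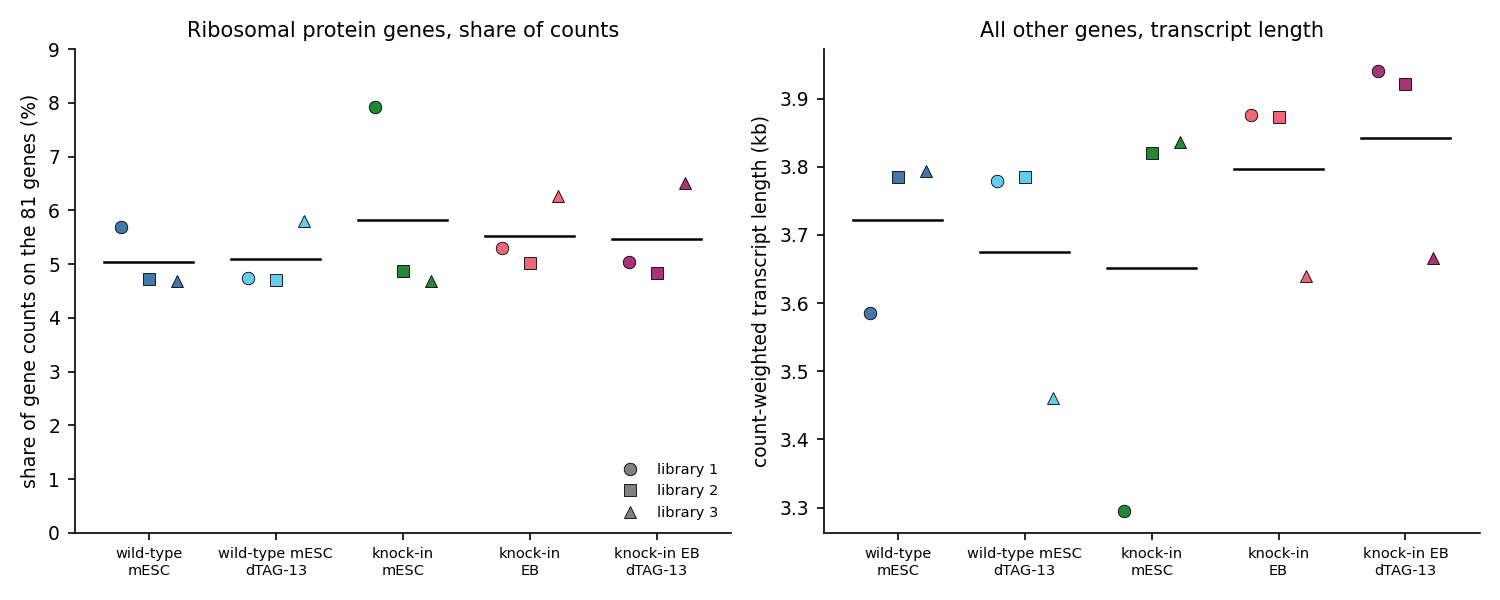
Left, share of gene counts on the 81 ribosomal protein genes (%) per library; right, mean transcript length of all other genes, weighted by counts (kb, axis not from 0), in the same libraries. Points are libraries 1 to 3 of each group and lines are group means. The library with the highest share in each group, 5.69%, 5.81%, 7.92%, 6.27% and 6.50%, is also the library with the shortest length, 3.58, 3.46, 3.30, 3.64 and 3.67 kb.

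The ribosomal protein genes rose and fell together between libraries of the same group. Library 1 of the wild-type and of the NSD1-dTAG mESCs and library 3 of the other groups had the highest CPM of the group for 77 (wild-type), 81 (NSD1-dTAG), 79 (wild-type with dTAG-13), 76 (EBs) and 78 (EBs with dTAG-13) of the 81 genes. Over the 78 genes above 1 CPM in every library, the median log2 ratio of that library to the mean of the other 2 was 0.28 in wild-type mESCs, 0.31 with dTAG-13, 0.72 in NSD1-dTAG mESCs, 0.26 in EBs and 0.35 in EBs with dTAG-13. Over all 10866 genes above 1 CPM it was between -0.08 and 0.02.

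The shift was not the same for every gene. In NSD1-dTAG library 1 it went from 0.09 to 1.12, with a median of 0.93 for the 22 genes with transcripts under 600 bases and 0.71 for the 15 with transcripts over 1200 bases. Across the 78 genes its rank correlation with transcript length was -0.51 there, -0.47 in wild-type library 3 with dTAG-13, and -0.29, -0.17 and -0.14 in the other 3 libraries. The points share their library and its depth. Some other lists moved with the ribosomal protein genes. In NSD1-dTAG library 1 the median was 0.79 for 43 oxidative phosphorylation genes (median transcript 610 bases) and 0.77 for 18 ribosomal protein pseudogenes. It was 0.49 for 77 mitochondrial ribosomal protein genes (1280 bases) and 0.12 for 30 ribosome biogenesis genes (2544 bases). All other genes together had a count-weighted transcript length of 3.30 kb in that library against 3.82 and 3.84 kb in the other 2. The part of transcript length or RNA quality in the shares was not tested. Leaving out these 5 libraries, which an earlier analysis of these data had set apart, is used below as an alternative.

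Total gene counts ran from 18704591 to 29103958 per library. Spiked ERCC RNA took 0.292% to 0.496% of counts in the mESC libraries and 0 counts in all 6 EB libraries, so EB and mESC libraries differ in the spike-in as well as in the cells, and the 2 differences cannot be told apart. The 10 naive mESC markers summed to 4940 to 5438 CPM in the mESC libraries and 1418 to 1884 in EBs. In nontreated EBs against NSD1-dTAG mESCs 9 of these 10 were called lower and 1 higher, against 26.3% and 33.1% of all genes. Pou5f1 was the highest of them in EBs without and with dTAG-13, at 691 and 647 CPM. The 10 epiblast and streak markers summed to 130 to 179 CPM in mESCs and 1355 to 2154 in EBs, and the 7 extraembryonic endoderm markers to 0.653 to 1.61 and 167 to 565 CPM. These sums pool EBs without and with dTAG-13, and Dnmt3b was the highest epiblast and streak marker in both. With dTAG-13 in EBs, 5 of the 10 naive and 5 of the 10 epiblast and streak markers were called lower and 0 higher. Their median log2 fold changes were -0.76 and -2.30, and 2.78% of all genes were called lower. The 5 fibroblast markers reached 57.9 CPM and the 5 blood markers 1.12 CPM in the highest EB library, with Hbb-bh1, Hba-x and Hba-a1 at 0. In bulk RNA of a mixed culture, fewer cells of a type and less RNA per cell cannot be told apart.

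No ribosomal protein gene was called with dTAG-13 in wild-type mESCs, which have no tagged protein. None of the 81 passed the test at an adjusted p below 0.05 (edgeR quasi-likelihood, Benjamini-Hochberg over all genes), and the background was 0.0%, with 0 of 13784 genes called. DESeq2 and limma-voom also called 0, and 0 of the 81 had an unadjusted p below 0.05 in the edgeR fit, against 1.66% of all genes. Fitted log2 fold changes ran from -0.18 for Rps27rt (SE 0.26) to 0.20 for Rpl3l (SE 0.34), both under 2 CPM, with a median of 0.02 and 55 of 81 above 0, against 46.7% of all genes. The count above 0 depended on single libraries: it was 2 without dTAG-13 library 3 and 80 without dTAG-13 library 2. Rpl4, the highest, had 3208, 2964 and 2890 CPM without and 2894, 2895 and 3247 CPM with dTAG-13. The groups overlap, as they do for all 81 genes.

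In NSD1-dTAG mESCs, 78 of the 81 ribosomal protein genes had a fitted log2 fold change above 0 against wild-type mESCs, with a median of 0.26, against 52.9% of all genes above 0, but none passed the test. The background was 1.86%, 259 of 13895 genes called, and the median over all genes was 0.01. DESeq2 and limma-voom called 0 as well, and 1 of the 81 had an unadjusted p below 0.05 in the edgeR fit, against 14.1% of all genes. The median depended on library 1: without that of NSD1-dTAG alone it was -0.05. Without library 1 of both groups, each the highest of its group, it was 0.04, with 61 of the 81 above 0. With a correction for transcript length it was 0.11, with 74 above 0. With library sizes taken from the ribosomal protein counts themselves, which moves the median of all genes to -0.18, the median of the 81 was -0.01.

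Rpl15 and Rps24 had the largest fitted differences of the 81. Rpl15, a large subunit protein (ENSMUSG00000012405.16), was at 503, 434 and 420 CPM in wild-type and at 797, 555 and 555 CPM in NSD1-dTAG mESCs. Its groups do not overlap, as for 1 other of the 81, Rps10, and 6.07% of all genes on this side, and the log2 fold change was 0.55 (SE 0.17, adjusted p = 0.199, edgeR). The labels do not say that a replicate number marks a shared batch. With the replicate number as a block, Rpl15 passed the test at log2 0.53 (adjusted p = 0.0232). Rps24, a small subunit protein (ENSMUSG00000025290.17), was at 1206, 931 and 911 CPM in wild-type and at 2360, 1183 and 1160 CPM in NSD1-dTAG mESCs. The groups overlap, and the log2 fold change was 0.69 (SE 0.31, adjusted p = 0.383), or 0.61 with the block (adjusted p = 0.0536). With the block 1 of the 81 was called, against 5.65% of all genes.

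Both genes passed the test, with smaller fold changes, when the libraries set apart were left out. With libraries 2 and 3 of each group, Rpl15 was higher by 0.41 (adjusted p = 1.53e-13) and Rps24 by 0.38 (adjusted p = 4.55e-13) on the log2 scale. Of the 81 genes, 17 passed the test in that fit, 14 higher and 3 lower. Of all genes 22.7% passed it, 11.5% higher and 11.2% lower, so the count is near the background. The other 12 higher genes differed by 0.08 to 0.14, led by Rps29 at 0.14, and the 3 lower ones were the copies Rpl39l at -0.29, Rps27l at -0.11 and Rpl22l1 at -0.09. The 2 libraries left in each group differed by little more than sampling noise (chi-square per degree of freedom 1.67 and 2.17), so small differences pass it.

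Rpl15 and Rps24 are the 2 ribosomal protein genes of chromosome 14, and their starts lie 6.22 Mb apart near its beginning. Genes around them were higher in NSD1-dTAG mESCs as well, a pattern described after seeing these values. Of the 108 other genes in the first 40 Mb of chromosome 14 that were above 1 CPM in every library, 105 had a higher mean CPM in libraries 2 and 3 of NSD1-dTAG than of wild-type mESCs, with a median log2 ratio of 0.35. Rpl15 itself had 0.38 and Rps24 0.35. In the fit on all 6 libraries, 129 of 137 genes there were above 0, with a median of 0.36 and 6 called higher. The median fell below 0 further along the chromosome, to -0.34 between 70 and 80 Mb, and returned to 0.27 between 100 and 110 Mb. In 238 other stretches of 10 Mb with at least 10 genes, on chromosomes other than 14, the median stayed between -0.17 and 0.20.

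The first 40 Mb of chromosome 14, without Rpl15 and Rps24, took 1.07%, 1.11% and 1.11% of counts in wild-type mESCs, 1.11%, 1.10% and 1.04% with dTAG-13, and 1.28%, 1.42% and 1.42% in NSD1-dTAG mESCs. All 3 NSD1-dTAG mESC libraries lie above all 6 wild-type libraries, library 1 included. In EBs of the NSD1-dTAG line the region took 1.67%, 1.60% and 1.51% without and 1.63%, 1.62% and 1.61% with dTAG-13. Rpl15 and Rps24 themselves had fitted log2 fold changes of -0.37 and -0.65 in nontreated EBs against NSD1-dTAG mESCs, neither called. For dTAG-13 in wild-type mESCs the 10 Mb medians outside chromosome 14 lay between -0.09 and 0.04. DNA was not measured, and the part of the region in the levels of Rpl15 and Rps24 was not tested.

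**Figure D2:**
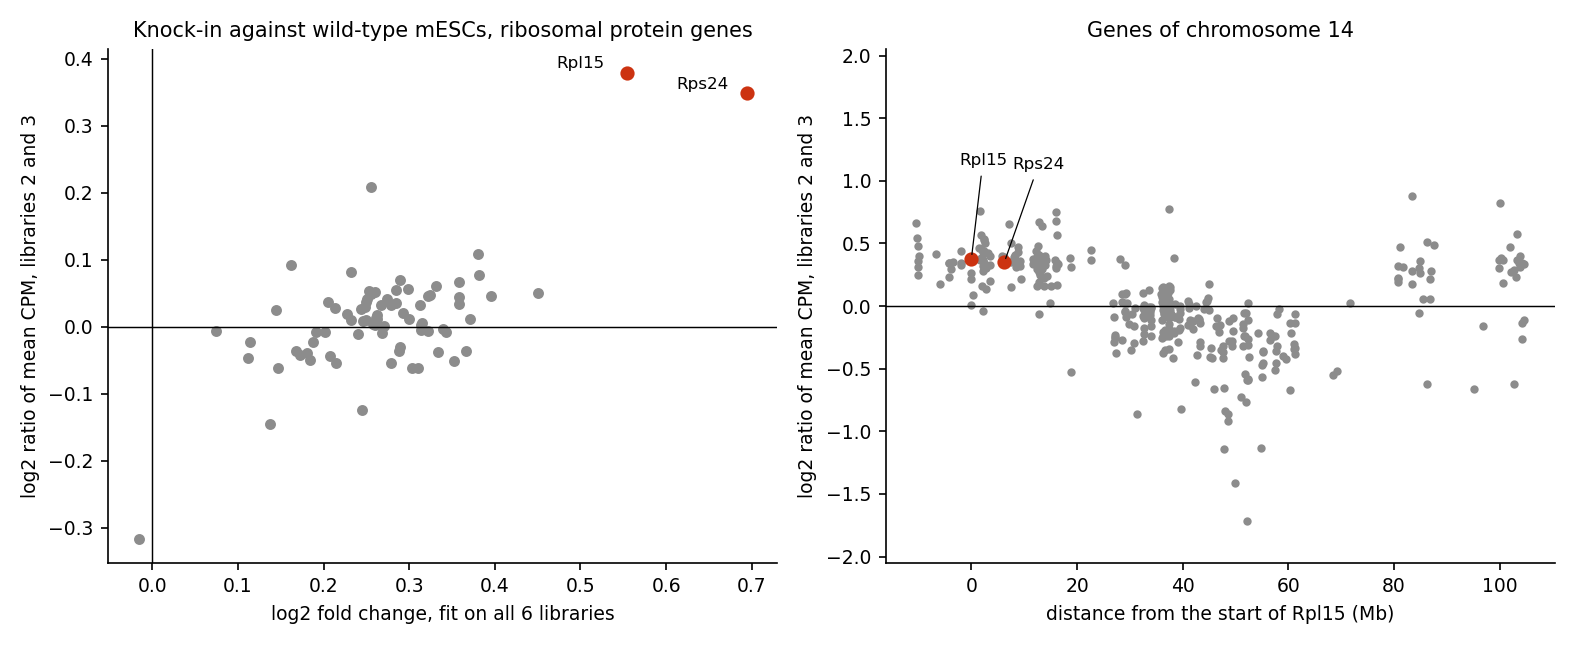
Left, each ribosomal protein gene above 1 CPM: log2 fold change of NSD1-dTAG against wild-type mESCs fitted on all 6 libraries (x) and log2 ratio of mean CPM in libraries 2 and 3 (y). Right, log2 ratio of mean CPM in libraries 2 and 3 for chromosome 14 genes by distance from the start of Rpl15 (Mb). Red points are Rpl15 and Rps24, which stay at 0.38 and 0.35 on the y axis while most of the others fall near 0; grey points on the right are other genes, with a median of 0.35 in the first 40 Mb.

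In day 6 EBs against NSD1-dTAG mESCs, 74 of the 81 genes had a fitted log2 fold change below 0, beside 49.2% of all genes. The test called 9 of the 81 lower in EBs, and none passed it in the other direction. Of these 9, 5 are copies (Rpl39l, Rpl3l, Rpl22l1, Rps27rt and Rpl7l1), 1 is the binding partner Rps19bp1, and 3 are single-copy subunit genes by symbol (Rpl24, Rps10 and Rps29). The share called, 11.1%, stands beside 59.5% of all 15193 genes called, 26.3% lower and 33.1% higher. The median log2 fold change of the 81 was -0.24 and that of the 73 genes without copies and Rps19bp1 was -0.23, with 3 called, against 0.02 for all genes. The signs and the median depended on NSD1-dTAG library 1: without it 33 of the 81 were below 0 and 48 above, with a median of 0.03. With a correction for transcript length 48 were below 0 and 33 above, with a median of -0.05.

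Rpl22l1, the copy of the large subunit protein Rpl22 (ENSMUSG00000039221.10), was at 288, 142 and 147 CPM in NSD1-dTAG mESCs and at 114, 107 and 122 CPM in EBs. Every EB library is below every mESC library. The groups did not overlap on this side for 10 of the 81 genes (12.3%) and for 24.3% of all genes. Rpl22l1 fell 1.88-fold (log2 -0.91, SE 0.28, adjusted p = 0.0214, edgeR). Its parent Rpl22 was at 958, 550 and 528 CPM in mESCs and 753, 684 and 843 CPM in EBs, a log2 fold change of 0.01 (SE 0.25, adjusted p = 0.974). Per transcript length, Rpl22l1 made up 49.0% to 52.7% of the pair in the 9 mESC libraries and 33.2% to 36.8% in the 6 EB libraries. The NSD1-dTAG mESCs span that whole mESC range, and the CPM of both genes was highest in their library 1.

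Rpl39l, the copy of the large subunit protein Rpl39 (ENSMUSG00000039209.12), had a wider range. It was at 18.2, 10.2 and 9.77 CPM in NSD1-dTAG mESCs and at 4.51, 3.24 and 3.68 CPM in EBs, 3.72-fold lower (log2 -1.90, SE 0.29, adjusted p = 6.54e-04). Rpl39 was at 379, 202 and 188 CPM in mESCs and 262, 246 and 306 CPM in EBs, with overlapping groups (log2 -0.07, adjusted p = 0.833). Rpl39l made up 3.52% to 5.52% of its pair per length in mESCs and 0.905% to 1.39% in EBs. Within mESCs its share was 3.68% ± 0.144 in the NSD1-dTAG line and 4.78% ± 0.298 in wild type (SD, n = 3 each), with no overlap (exact permutation test of the log2 ratio, p = 0.1, the smallest possible).

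Rpl7l1, the copy of Rpl7 and a protein of ribosome assembly, was steady within mESCs, at 395 to 440 CPM over the 9 libraries. In EBs it was at 251, 266 and 305 CPM, 1.66-fold lower than in NSD1-dTAG mESCs (log2 -0.73, SE 0.12, adjusted p = 0.00103). Rpl7 had a log2 fold change of -0.31 (SE 0.22, adjusted p = 0.251). Rps27rt, the single-exon copy of Rps27, fell from between 1.63 and 3.20 CPM to between 1.17 and 1.45 CPM, with 33 to 93 counts per library (log2 -0.89, SE 0.33, adjusted p = 0.0445). It was called in 5 of 15 alternatives, and as a near-identical copy of Rps27 its count is uncertain. Rpl3l, known from muscle, fell from 0.825, 0.755 and 0.814 CPM to 0.298, 0.320 and 0.223 CPM, counts of 20 to 24 against 6 to 9 (log2 -1.63, SE 0.28, adjusted p = 0.00133).

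The other copies did not pass. Rpl36al had 11.3, 5.29 and 5.13 CPM in mESCs and 4.73, 3.99 and 4.72 CPM in EBs (log2 -0.85, SE 0.33, adjusted p = 0.0539). The groups do not overlap, and it was called lower in 7 of 15 alternatives. It made up 1.26% to 1.72% of the pair with Rpl36a per length in the 9 mESC libraries and 0.834% to 1.13% in the 6 EB libraries, and its log2 ratio did not overlap between NSD1-dTAG mESCs and nontreated EBs (exact permutation p = 0.1). Rps27l, a known p53 target, was at 302, 168 and 171 CPM in mESCs and 173, 177 and 210 CPM in EBs, and the groups overlap (log2 -0.35, SE 0.24, adjusted p = 0.252). Rps27l made up 23.7% to 25.0% of the pair with Rps27 per length in NSD1-dTAG mESCs, 23.0% to 25.5% in EBs and 26.6% to 28.0% in wild-type mESCs. Its log2 ratio to Rps27 did not overlap between the NSD1-dTAG and wild-type mESCs (exact permutation p = 0.1). Among the copies this held for Rpl39l and Rps27l only, and the ratios of Rpl3l, Rpl7l1, Rpl22l1, Rpl36al and Rps27rt overlapped. The share of other gene pairs without overlap was not computed for this comparison or for EBs against mESCs, so these results have no background.

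**Figure D3:**
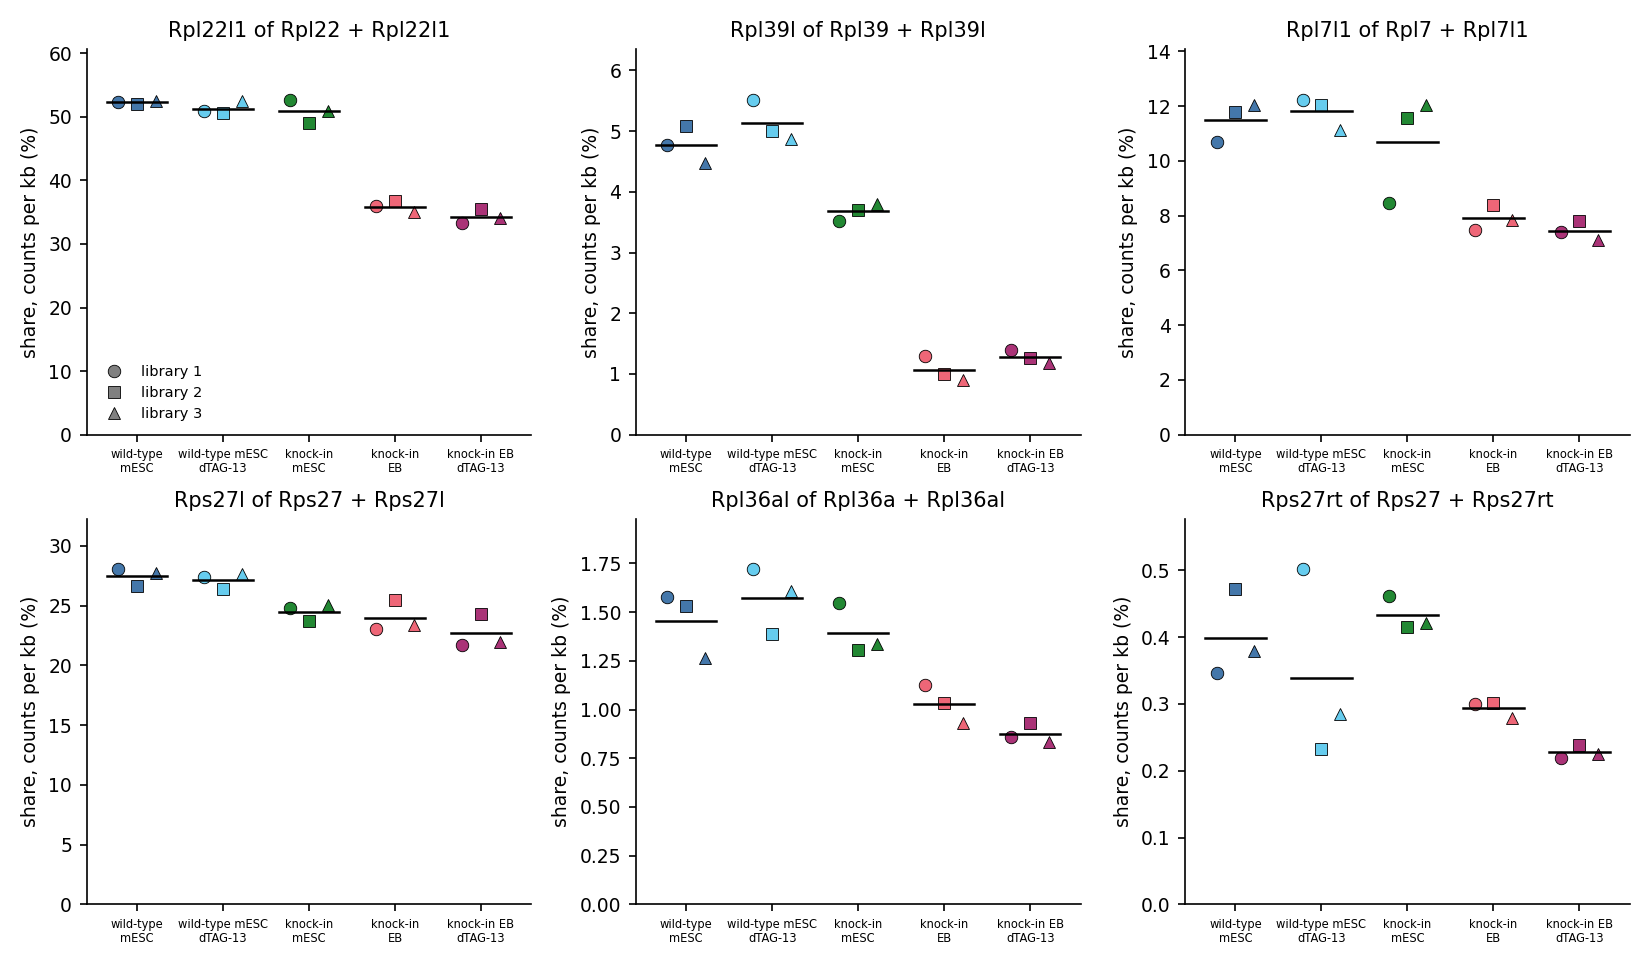
Share of a copy in the sum of copy and parent, each as counts per kb of transcript (%), in the 15 libraries (points, libraries 1 to 3) with group means (lines), each panel on its own axis from 0. Rpl22l1 lies between 49.0% and 52.7% in the 9 mESC libraries and between 33.2% and 36.8% in the 6 EB libraries, and Rpl39l between 3.52% and 5.52% and between 0.905% and 1.39%.

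Among the subunit genes, Rps29, which holds a zinc site and sits in the head of the small subunit, was at 773, 466 and 465 CPM in NSD1-dTAG mESCs and 382, 380 and 440 CPM in EBs (log2 -0.66, SE 0.22, adjusted p = 0.0320). It missed the threshold with a replicate block (adjusted p = 0.0512). Rps10 had 11.1, 10.4 and 9.81 CPM in mESCs and 6.75, 4.91 and 4.35 CPM in EBs (log2 -1.12, SE 0.19, adjusted p = 0.00132). Rpl24 had 1.58, 1.19 and 1.14 CPM in mESCs and 0.522, 0.463 and 0.149 CPM in EBs (log2 -1.92, SE 0.41, adjusted p = 0.00372), from 4 to 46 counts per library. Rps10 and Rpl24 are the genes with the overlapping partners named above, so these counts may not stand for the whole transcript. The binding partner Rps19bp1 went from 63.3, 44.8 and 42.5 CPM to 28.0, 29.0 and 37.5 CPM (log2 -0.82, SE 0.20, adjusted p = 0.0076).

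Rpl28 and Rpl29, of the large subunit, had the highest fitted values. Rpl28 was at 653, 525 and 493 CPM in NSD1-dTAG mESCs and 724, 693 and 842 CPM in EBs, without overlap, and did not pass (log2 0.29, SE 0.15, adjusted p = 0.142). On the higher side 2 of the 81 did not overlap (2.47%), against 42.1% of all genes. Rpl29 was at 43.5 to 47.1 CPM in mESCs and 53.8 to 61.0 CPM in EBs (log2 0.17, SE 0.11, adjusted p = 0.216). Rpl15 and Rps24 had log2 fold changes of -0.37 (adjusted p = 0.125) and -0.65 (adjusted p = 0.0809), both groups being of the NSD1-dTAG line.

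The count in EBs depended on the libraries set apart. Without them 29 of the 81 passed, 19 lower and 10 higher, against 34.8% and 38.4% of all genes, and the median was -0.05. With library sizes taken from the ribosomal protein counts, which moves the median of all genes to 0.16, 6 were called lower and the median was -0.02. The largest of the 10 higher were Rpl28 at 0.34, Rpl22 at 0.28 and Rpl39 at 0.25 on the log2 scale, and the lower ones held Rpl39l at -1.50, Rpl7l1 at -0.75, Rps19bp1 at -0.75 and Rpl22l1 at -0.53. With a correction for transcript length 18 passed, 14 lower and 4 higher (among them Rpl28 at 0.44, Rpl29 at 0.35 and Rpl17 at 0.31), against 34.9% and 34.1% of all genes. Rpl39l, Rpl3l, Rpl24, Rps10 and Rps19bp1 were called lower in all 15 alternatives, Rpl7l1 in 14 and Rpl22l1 in 13.

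**Figure D4:**
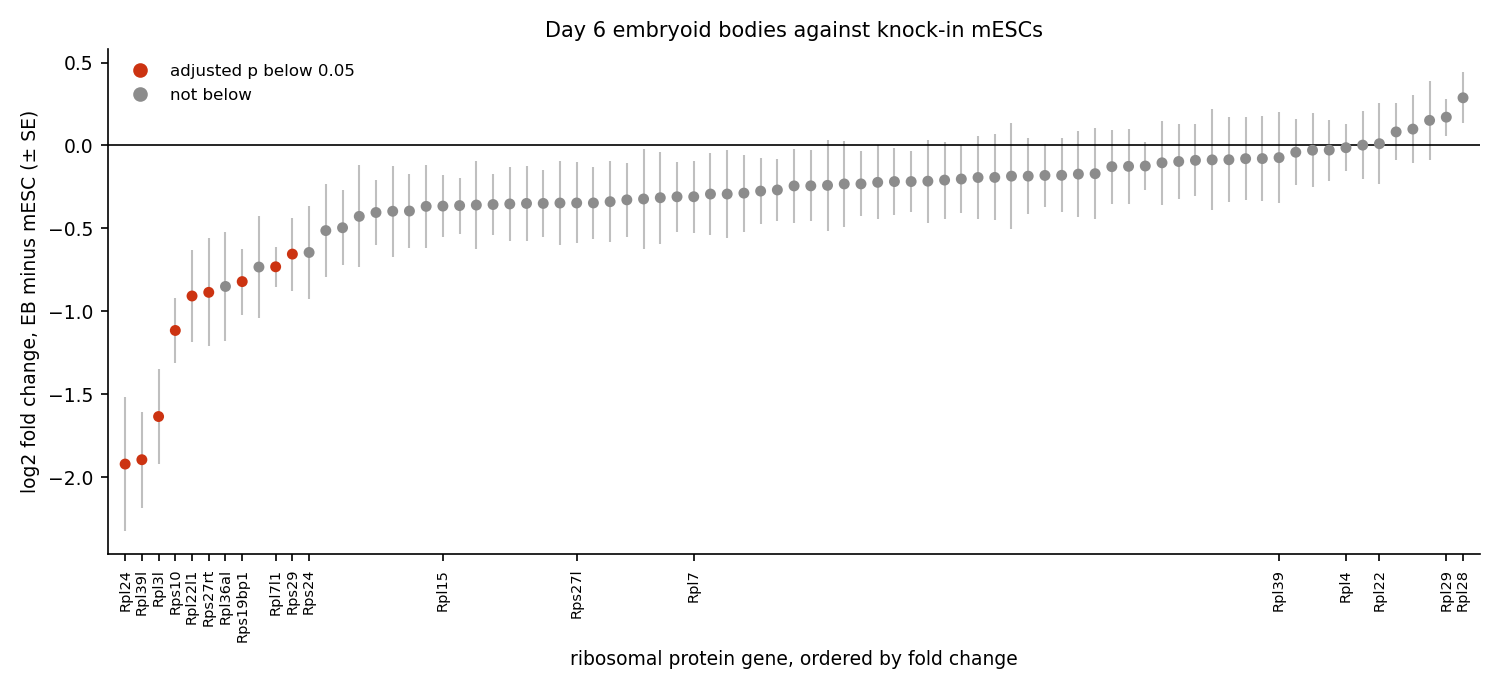
Fitted log2 fold change of each of the 81 ribosomal protein genes in nontreated day 6 EBs against NSD1-dTAG mESCs, with its standard error, ordered by size (3 libraries per group). Red points passed an adjusted p below 0.05, and names are given for these and for other genes described in the text. The 9 called genes lie between -1.92 and -0.66, and 7 of the 81 genes lie above 0, against 50.8% of all genes. In the fit without NSD1-dTAG library 1, not shown, 48 of the 81 were above 0.

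With dTAG-13 in EBs none of the 80 ribosomal protein genes tested was called (Rpl3l was under the count filter), where 6.76% of all 15236 genes were. DESeq2 and limma-voom also called 0, and 0 of the 80 had an unadjusted p below 0.05 in the edgeR fit against 21.7% of all genes. With the replicate number as a block 0 were called, against 12.0% of all genes. Log2 fold changes ran from -0.39 for Rpl36al (SE 0.18, adjusted p = 0.256) to 0.25 for Rpl24 (SE 0.67), with a median of -0.04. Rpl36al was at 4.73, 3.99 and 4.72 CPM without and 3.17, 3.36 and 3.90 CPM with dTAG-13, the single gene of the 80 whose groups did not overlap on the lower side, where 11.6% of all genes did not. Rpl22l1 was at 114, 107 and 122 CPM and 99.8, 104 and 130 CPM, and its share of the pair with Rpl22 was 35.9% ± 0.890 and 34.3% ± 1.16 (SD, n = 3 each, exact permutation p = 0.2 for the log2 ratio). For 2 of the 7 copies the log2 ratio to the parent did not overlap between EBs without and with dTAG-13. Rps27rt to Rps27 was lower by -0.37 and Rpl36al to Rpl36a by -0.24 (exact permutation p = 0.1 for each, the smallest possible). The share of other gene pairs without overlap was not computed, so this count has no background. Rps27rt itself, at mean levels of 1.31 and 1.10 CPM, overlapped and was not called (log2 -0.27, SE 0.24, adjusted p = 0.580, edgeR). Rps27rt made up 0.293% ± 0.0123 and 0.228% ± 0.00998 of its pair, and Rpl36al 1.03% ± 0.0974 and 0.874% ± 0.0506 (SD, n = 3 each).

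Without the libraries set apart 3 of the 80 were lower with dTAG-13 in EBs, against 10.2% of all genes: Rps29 by -0.24 (adjusted p = 0.0194), Rps4x by -0.20 (adjusted p = 0.0388) and Rpl28 by -0.19 (adjusted p = 0.0498) on the log2 scale. The difference between the effects of dTAG-13 in EBs and in wild-type mESCs was tested as an interaction in edgeR. It called 456 of 15855 genes (2.88%) and 0 of the 81, with a smallest adjusted p of 0.429 among them, and 0 of the 81 had an unadjusted p below 0.05.

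The other lists of ribosome and mitochondrial genes are given for EBs beside the background of 26.3% of all genes called lower and 33.1% higher; differences between lists were not tested. Of the 6 ribosomal protein genes with other symbols 0 were called, with a median log2 of -0.31 beside -0.24 for the 81. Of 30 ribosome biogenesis genes 20 were lower and 0 higher, with a median of -0.52, and Tcof1, the cofactor of RNA polymerase I transcription, fell from 422 ± 51.6 to 230 ± 15.1 CPM (log2 -1.02, adjusted p = 1.24e-04). Of 77 mitochondrial ribosomal protein genes 38 were lower and 1 higher, and of 43 oxidative phosphorylation genes 36 were lower, with medians of -0.48 and -0.85. Of 52 ribosomal protein pseudogenes tested 3 were higher and 1 lower, with a median of -0.09. Of 21 translation factors and other TOP mRNA genes 3 were higher and 4 lower: the elongation factor Eef2 went from 4543 ± 555 to 7331 ± 480 CPM (log2 0.55, adjusted p = 0.00645) and the poly(A)-binding protein Pabpc1 from 4282 ± 43.5 to 3191 ± 150 CPM (log2 -0.57, adjusted p = 0.00246). Of the 20 genes listed as regulators of ribosomal protein synthesis 2 were higher and 6 lower. Those of smallest p in each direction were Zbtb46, which went from 1.33 ± 0.315 to 9.23 ± 1.12 CPM (log2 2.63, adjusted p = 2.52e-05), and Gabpa, an ETS factor, which went from 242 ± 29.4 to 154 ± 10.7 CPM (log2 -0.79, adjusted p = 5.08e-04). Zbtb46, a transcription factor known from dendritic cells, and Trf, which encodes transferrin and was lower by -1.36 (adjusted p = 0.00111), do not do what the list's name says. The other calls were Tsc1, higher at 0.67, and Tsc2, Eif4ebp1, Rps6kb2 and Max, lower at -0.94, -0.76, -0.57 and -0.39.

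In the other 3 comparisons these lists held a single call: Myc, which drives ribosome biogenesis genes, went from 31.1 ± 1.12 CPM in wild-type to 43.8 ± 2.65 CPM in NSD1-dTAG mESCs (log2 0.55, SE 0.09, adjusted p = 0.0391). In 6 of the 16 alternatives of that comparison no gene was called higher, so the Myc call was lost: on dropping any single wild-type library or the second NSD1-dTAG library, with ERCC scaling, and with library sizes from the ribosomal protein counts. The ribosomal protein genes with a pyrimidine run at a listed start (29) and those without (33) had medians of -0.29 and -0.24 in EBs, 0.27 and 0.26 in NSD1-dTAG mESCs, 0.02 and 0.01 for dTAG-13 in wild-type mESCs, and -0.03 and -0.05 (32 tested) for dTAG-13 in EBs, so the medians differed by less than 0.1 in each.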

How the data were processed

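The values are whole-number counts of reads on each gene, deposited as 1 table per library with no normalization. Per the labels' protocols, poly(A) RNA went into a kit that marks strand. Named in the submitters' processing notes are STAR, bcl2fastq 2.20.0.422, DESeq2 1.30.0 and GRCm38.p6. On counting settings, strand and annotation release the sources used here say nothing. IDs were matched without version to GENCODE release M21 (55230 of 55471), which gave symbols, transcript lengths and coordinates, and 92 ERCC IDs stayed out of library sizes and tests.

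Each comparison was fitted on the libraries of its 2 groups over all genes with edgeR 4.0.16 in R 4.3.3: TMM factors, filterByExpr, quasi-likelihood F test, Benjamini-Hochberg adjustment, called at an adjusted p below 0.05. Log2 fold changes use TMM factors, so they can differ from ratios of the plain CPM printed. Shares of counts and of gene pairs were compared by exact 2-sided permutation tests over libraries. Alternatives were DESeq2 1.42.0, limma-voom (limma 3.58.1), RLE factors, no count filter, a replicate block, a transcript-length offset, ERCC scaling (mESCs), leaving out libraries and, added after seeing the data, library sizes from the ribosomal protein counts. Libraries with the same number deviated together from their group means in the knock-in comparison (r = 0.58, 0.29 and 0.29) and for dTAG-13 in EBs (0.23, 0.27 and 0.37). In each of these the library with the highest ribosomal protein share has the same number in both groups. Libraries 2 and 3 of the knock-in comparison also correlated across numbers (0.22 and 0.25). The labels name no shared batch, so whether the numbers pair the libraries is not known. The scripts were tested on simulated counts. The genes, lists and tests were chosen with earlier results of these data known. Genes were named by a rule: the 6 highest and 6 lowest fold changes, the 5 highest levels, the copies and Rps19bp1, and of each other list the called gene of smallest p in each direction or else the highest gene; others named were called or lie on chromosome 14. Python 3.11.15, pandas 2.3.3, numpy 2.4.6, scipy 1.17.1 and matplotlib 3.10.9 were used. Some genes of these lists are not reported here by name.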

Additional observations from a re-analysis of the deposited data

How the results depend on the processing

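The difference in the share of counts, in percentage points, changed sign for EBs against mESCs per kb of transcript (0.226), per kb of merged exons (0.267) and without the libraries set apart (0.383). Leaving out a library in turn, it ran from -0.306 to 0.383 for dTAG-13 in wild-type mESCs, from -0.257 to 1.36 for the knock-in, from -0.865 to 0.751 for EBs against mESCs and from -0.591 to 0.299 for dTAG-13 in EBs, and the sign turned without wild-type library 2 (-0.102) or 3 (-0.116), dTAG-13 library 3 (-0.306), NSD1-dTAG library 1 (-0.257 and 0.751), EB library 3 (0.299), or dTAG-13 EB library 1 (0.144) or 2 (0.240). With a replicate block the exact sign-flip test over 3 pairs cannot give a p below 0.25. The number of ribosomal protein genes called in the knock-in comparison, 0, was 1 with a replicate block, 1 with the length offset, 3 with both, 17 without the libraries set apart and 0 to 1 with a library left out. In EBs against mESCs it was 9 and became 8 with a replicate block, 18 with the length offset, 14 with both, 29 without the libraries set apart and 6 to 14 with a library left out, the 14 without NSD1-dTAG library 3. For dTAG-13 in EBs it was 0 and 3 without the libraries set apart, and 0 with a library left out; for dTAG-13 in wild-type mESCs it was 0 in all 16 alternatives. Without the libraries set apart, Rpl22l1 (-0.0910) and Rps27l (-0.11) were lower in the knock-in and Rpl39 (0.25) higher in EBs, each against its fitted sign, and Rpl39 ran from -0.30 to 0.33 with a library left out, the highest without NSD1-dTAG library 1. Same-numbered libraries did not all deviate together in the other 2 comparisons (lowest correlation -0.29 and -0.27). The cause of these changes was not tested. Scaling to the ERCC counts was not run with EBs, whose libraries have 0 of them. Depth limits Rpl24, Rpl3l and Rps27rt, with under 100 counts in each library of the EB comparison.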

Other observations

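Rpl10l, a retrotransposed copy of the X-linked Rpl10 known for its role in spermatogenesis, is left out of the 81 by the rule and is described here after its values were seen. It had 58.7 to 70.3 CPM in wild-type mESCs, 61.9 to 81.5 CPM with dTAG-13, 44.7 to 71.1 CPM in NSD1-dTAG mESCs and 4.42 to 5.03 CPM in EBs. The difference between EBs and NSD1-dTAG mESCs was -3.67 on the log2 scale (SE 0.23, adjusted p = 5.3e-06, edgeR), further from 0 than that of any of the 81. With dTAG-13 in EBs it was at 4.63 to 6.06 CPM (log2 0.13, SE 0.17, adjusted p = 0.734). Its parent Rpl10 had a log2 fold change of -0.12 in EBs (SE 0.14, adjusted p = 0.481).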
